A study of Mus musculus with 4 samples.

Results

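The guanylate-binding proteins (GBPs) and immunity-related GTPases (IRGs) of quiescent follicular B cells were described from RNA-seq of WT and Ets1-/- mice. The 8 genes were taken by symbol: Gbp2, Gbp3, Gbp6 and Gbp7 of the GBP family, and Irgm1, Irgm2, Igtp and Iigp1 of the IRG family. They are 8 of 23305 genes with a unique symbol in the tables. The rule that took them used no expression value, but it was set with earlier results of these data known.

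GBPs are large GTPases of the dynamin superfamily whose transcription is induced by interferon-gamma. They bind nucleotide, assemble on the vacuoles of intracellular parasites and on cytosolic bacteria, and expose these to killing or to inflammasome sensing. IRGs act on the same vacuoles. The effector IRGs, which include Iigp1, load onto the vacuole membrane, and the regulatory IRGs Irgm1, Irgm2 and Igtp (also called Irgm3) sit on host membranes and hold the effectors inactive there.

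The study sorted B220+ follicular B cells with high CD23 and low CD21 that lacked CD80 and switched isotypes from spleens of female mice. There were 2 WT libraries from C57BL/6 mice and 2 Ets1-/- libraries from mice of mixed C57BL/6 x 129Sv background. The study kept the mutants on the mixed background because loss of Ets1 on pure C57BL/6 is lethal around birth. The mutation was carried by the whole animal, so host cells other than B cells lacked Ets1 too. Genotype and strain background differed together in every comparison below and cannot be told apart. The age of these mice and the number of animals in a library are not given in the sources used here.

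Expression is given as FPKM, a fragment count scaled to gene length and to the mapped reads of the library, which can be compared between genes as well as between libraries. Read counts are not part of the tables. From the steps between low FPKM values, the deepest library held about 2 times the reads of the shallowest, and the shallowest was Ets1-/- replicate 2. The median gene differed between replicates by 0.126 on the log2 scale in WT and by 0.259 in Ets1-/-. The whole-gene FPKM of Ets1 was 231 and 275 in WT and 229 and 230 in Ets1-/-; a whole-gene value does not show which exons were transcribed, so it does not check the genotype labels. All 9 B cell markers found in the tables passed the filter on low values, and their summed FPKM was 6678 to 6893 in WT and 5582 to 6623 in Ets1-/-. Neutrophil markers set the Ets1-/- libraries apart: the summed FPKM of 10 markers was 94.2 to 113.8 in WT, 2474 in Ets1-/- replicate 1 and 680 in Ets1-/- replicate 2, none of the 10 was at 0 in every library, and 3 were called higher. The sum of 11 macrophage or monocyte markers was 32.8 to 67.2 in WT and 96.8 to 153.6 in Ets1-/-, with the higher value again in replicate 1. Among these 11, only Lyz2 and Emr1 had groups that did not overlap. Lyz2, which was not called, was 42.157 and 17.951 FPKM in WT and 102.31 and 45.735 in Ets1-/-. Csf1r, Cd68, C1qa, C1qb, C1qc, Cd14, Marco, Cd163 and Vcam1 overlapped between the genotypes, so the sum does not show a rise of macrophage markers in general. The 1 macrophage marker called, Emr1, was 2.35 and 2.63 FPKM in WT and 23.5 and 37.2 in Ets1-/-, higher in replicate 2 as Gbp2 was; its part in the Gbp2 result was not tested. The sum of 6 erythroid markers was 4.93 to 6.41 in WT, 85.5 in Ets1-/- replicate 1 and 27.1 in replicate 2. Neutrophil RNA, erythroid RNA and depth thus all differed between the 2 Ets1-/- replicates, with more of each in replicate 1. Their parts in the values of single genes below were not tested. The T cell marker Thy1 was called lower (17.4 and 16.2 FPKM in WT, 3.382 and 3.395 in Ets1-/-). The sum of 10 T cell markers overlapped, at 104.2 to 124.7 in WT and 104.4 to 131.5 in Ets1-/-. For 7 NK cell markers it was 31.19 to 46.46 in WT and 21.26 to 31.8 in Ets1-/-, with 0 called. This sum hides that Ncr1, Klrb1c, Klrd1, Prf1 and Gzma were lower in Ets1-/- without overlap, whereas Gzmb and Nkg7 overlapped. Ncr1 was 2.42 and 0.957 FPKM in WT and 0.0224 and 0.128 in Ets1-/-. Klrd1 was 6.81 and 6.31 in WT and 2.93 and 3.16 in Ets1-/-. The dendritic cell marker Cd209a was called higher. In RNA from sorted bulk cells, fewer cells of a type and less RNA per cell cannot be told apart.

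The promoters of these genes carry the letters of the elements through which interferons act, and the short stretches that hold them are shown because the genes are known for this shared control. RefSeq promoter sequences (GRCm38.p6, 250 bases before to 50 after the start) were at hand for 6 of the 8 genes and were not read from these mice. The interferon motifs searched, on both strands, were the gamma-activated site, spelled TTCNNNGAA, and the interferon-stimulated response element bound by interferon regulatory factors, spelled GAAA, any 2 bases, GAAA. In the sequences below, capitals mark the letters of these motifs, and each is read 5′ to 3′ in the direction of the gene. For Gbp7 the stretches with its gamma-activated sites follow the one with the response element.

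Gbp2, chr3:142620596-142620621, plus strand: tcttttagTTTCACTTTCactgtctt
Gbp3, chr3:142559991-142560022, plus strand: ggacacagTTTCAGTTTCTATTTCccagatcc
Gbp7, chr3:142530275-142530300, plus strand: gtgtgcagTTTCAGTTTCagttctcc
Gbp7, chr3:142530222-142530246, plus strand: cgttttctTTCCAGGAAaagcagaa
Gbp7, chr3:142530241-142530265, plus strand: gcagaagcTTCTCAGAAagtcagca
Irgm1, chr11:48871427-48871458, minus strand: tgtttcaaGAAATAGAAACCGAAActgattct
Irgm2, chr11:58214894-58214930, plus strand: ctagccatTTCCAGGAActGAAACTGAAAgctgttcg
Igtp, chr11:58199503-58199539, plus strand: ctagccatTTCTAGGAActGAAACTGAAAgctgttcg

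All 6 genes had a promoter with the response element, against 3.44% of the 32851 promoters searched. In Gbp2, Gbp3 and Gbp7 it lay on the strand opposite to the gene, and in Irgm1, Irgm2 and Igtp on the same strand. It began 59 bases before the start in Gbp2, 53 in Gbp7, 45 in Gbp3 and 30 in Irgm1, and both Gbp3 and Irgm1 held a pair of overlapping copies. Gbp7, Irgm2 and Igtp also held the gamma-activated site, against 8.3% of all promoters. In Irgm2 and Igtp this site and the response element stood 2 bases apart, and in both it was preceded by the same 8 bases. The IRG genes Tgtp1 and Tgtp2, which are not among the 8 genes, had the same 8 bases and the same gap of 2. Of the 10 further GBP and IRG genes with a promoter sequence, 6 held the response element and 4 the gamma-activated site. A pair of ETS motifs was searched in the same way. The letters GGAAGT, the core that ETS factors prefer, were present in Gbp2, Gbp3 and Irgm1, against 23.8% of all promoters, and the longer CCGGAAGT was in none of the 6, against 3.89%. The counts are of genes with a match at any start, and the promoter of a further Gbp3 start (chr3:142560106-142560355) held none of these motifs. A match of letters describes the sequence and is not evidence that a factor binds there.

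Gbp2 showed the largest difference among the 8 genes on the log2(FPKM + 1) scale. It lies at chr3:142283566-142300972 on the plus strand of mm9 and encodes a GBP that coats parasite vacuoles and cytosolic bacteria. Its FPKM was 9.18 and 9.07 in WT and 19.4 and 26.9 in Ets1-/-, so both Ets1-/- libraries lay above both WT libraries, and the higher of them was replicate 2. The mean was 9.12 ± 0.0725 FPKM in WT and 23.1 ± 5.28 in Ets1-/- (SD, n = 2 in each genotype), a ratio of 2.54. On the log2(FPKM + 1) scale the difference was 1.24 with an SE of 0.19 and a 95% interval of 0.75 to 1.72. A gene was called when it differed by 1 or more on this scale, in either direction, with a Benjamini-Hochberg adjusted p no higher than 0.05; Gbp2 passed the first condition and missed the second (limma, adjusted p = 0.0562). The p-values here rest on the spread between only 2 samples per genotype, which limma moderated toward that of genes of similar level. The residual degrees of freedom were 2 and the prior ones 3.095. With every library kept, the adjusted p of Gbp2 ranged from 0.000534 to 0.106 over 9 alternative settings in limma. The lowest value came from a crossed replicate block added after seeing the data. A replicate block by number gave 0.0344 in limma, although the sources used here give no pairing of the samples by number. Leaving out each library in turn moved the log2 fold change between 1.01 and 1.46, the highest without Ets1-/- replicate 1. There the 1 remaining Ets1-/- library is assumed to vary like the WT pair. The Gbp2 values of that pair differed by 0.0146 on the log2(FPKM + 1) scale, against 0.45 between the Ets1-/- libraries.

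Gbp3 (chr3:142223016-142236173) and Gbp7 (chr3:142193302-142213047) lie on the plus strand of the same cluster in mm9. Gbp3 was 20.4 and 22.1 FPKM in WT and 22.5 and 14.0 in Ets1-/-. The Ets1-/- libraries therefore lay on both sides of the WT pair, and the log2 fold change was -0.24 with an SE of 0.24 (limma, adjusted p = 0.806). Gbp7 was 4.852 and 4.575 FPKM in WT and 7.766 and 4.845 in Ets1-/-. Its Ets1-/- replicate 2 fell just under the higher WT library, so the groups overlapped, and the log2 fold change was 0.33 with an SE of 0.23 (limma, adjusted p = 0.680). Without Ets1-/- replicate 1 it was 0.03. For Gbp3 the value was -0.56 without Ets1-/- replicate 1 and 0.08 without Ets1-/- replicate 2.

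Gbp6 lies in the other GBP cluster, at chr5:105699723-105722718 on the minus strand of mm9. Its FPKM was 2.13 and 2.47 in WT and 4.07 and 2.91 in Ets1-/-, a ratio of means of 1.52. The groups did not overlap, and the higher Ets1-/- value was in replicate 1. Without that library the log2 fold change was 0.24. With all libraries it was 0.43 with an SE of 0.19 (limma, adjusted p = 0.437). Of the 50-base words in Gbp6 transcripts, 80.0% also occur in another gene and 75.3% in Gbp10, so the assignment of reads to Gbp6 is uncertain.

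**Figure D1:**
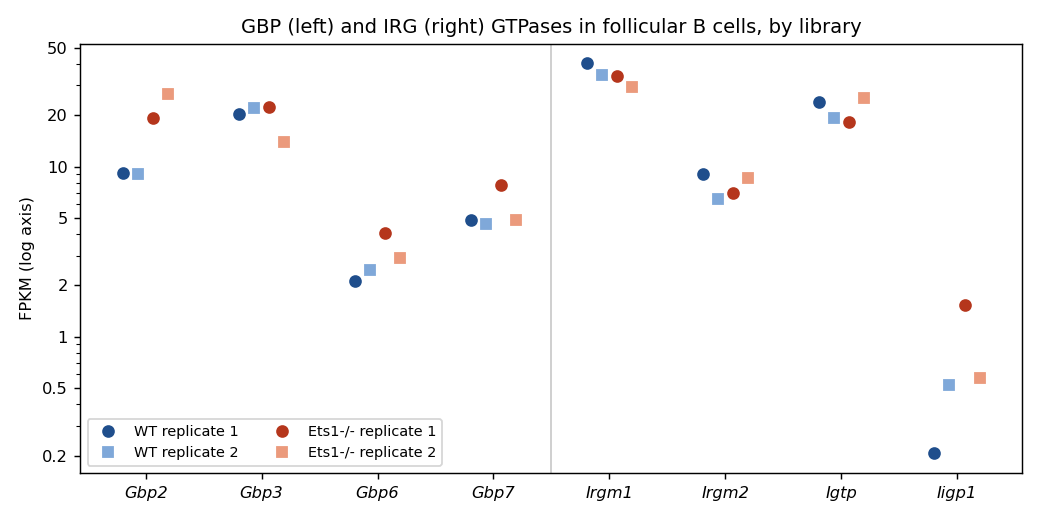
FPKM of the 8 genes in each library on a log axis, with blue points for the 2 WT and red points for the 2 Ets1-/- libraries, circles for replicate 1 and squares for replicate 2. Both Ets1-/- values of Gbp2 (19.4 and 26.9) lie above both WT values (9.18 and 9.07), whereas the Igtp and Irgm2 values interleave.

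The regulatory IRGs had fold changes closer to 0 than that of Gbp2. Irgm1, which acts on host membranes and in autophagy of mycobacteria, was the most abundant of the 8 in both genotypes. It lies at chr11:48675470-48685185 on the minus strand of mm9, away from Igtp (chr11:58013058-58021093) and Irgm2 (chr11:58028530-58036282) on the plus strand. Irgm1 was 40.4 and 34.4 FPKM in WT and 34.3 and 29.3 in Ets1-/-, so the groups were separated only by the 34.4 and 34.3 values. The log2 fold change was -0.23 with an SE of 0.16 (limma, adjusted p = 0.686). Igtp was 24 and 19.3 FPKM in WT and 18.3 and 25.4 in Ets1-/-, with a log2 fold change of 0.00, an SE of 0.21 and a 95% interval of -0.54 to 0.54 (limma, adjusted p = 1.00). Irgm2 was 9.06 and 6.45 FPKM in WT and 6.98 and 8.61 in Ets1-/-, at 0.02 on the log2 scale with an interval of -0.51 to 0.55 (limma, adjusted p = 0.993). The Ets1-/- values of Igtp lay outside the WT pair on both sides and those of Irgm2 lay inside it. The sign of the difference turned for both genes without WT replicate 2, to -0.15 for Igtp and -0.20 for Irgm2, and without Ets1-/- replicate 2, to -0.22 and -0.12.

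Igtp and Irgm2 had similar patterns across the libraries. They are adjacent, 7436 bases apart on chromosome 11 of mm9, and 9.64% of the 50-base words of Igtp occur in another gene. Over the 4 libraries, the root mean square difference of their mean-centred log2(FPKM + 1) values was 0.0804, the smallest of each with another of the 8 genes. The measure compares a pattern over 4 libraries only, and 950 of 9701 candidate genes were within 0.1 of Igtp by it. The gene most like each of the 8 by this measure was Masp2 for Gbp2 (0.0346), Usp9x for Gbp3 (0.0116), Slc35f5 for Gbp6 (0.0110), 2210408I21Rik for Gbp7 (0.0239), Elmo1 for Irgm1 (0.0127), Prkcq for Irgm2 (0.0135), Pi4ka for Igtp (0.00778) and Dyrk3 for Iigp1 (0.0296). For Gbp2 11 genes were within 0.1, the fewest among the 8. Masp2 was near the floor, at 0.0822 and 0.0494 FPKM in WT and 1.19 and 2.10 in Ets1-/-. Its match to Gbp2 holds on the log2(FPKM + 1) scale and not for the ratio of FPKM values. The match of Gbp7 was low too, as 2210408I21Rik was 0.855 to 1.86 FPKM over the libraries.

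The effector IRG Iigp1, which oligomerises on parasite vacuoles, had the lowest values of the 8 genes. Its FPKM was 0.206 and 0.519 in WT and 1.54 and 0.568 in Ets1-/-, a ratio of means of 2.91. The lower Ets1-/- value was just above the higher WT value, and the higher one was again in replicate 1. The filter on low values kept genes whose mean FPKM reached 1 in WT or in Ets1-/-. Iigp1 passed it only through the Ets1-/- mean, and 7 of the 8 genes passed by their WT mean. The log2 fold change was 0.56 with an SE of 0.29 (limma, adjusted p = 0.537). With a pseudocount of 0.1 it was 1.27, and with 5 it was 0.17. Without Ets1-/- replicate 1 the gene no longer passed the filter.

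Of the 8 genes, 0 were called changed by limma, against 1.70% of the 10949 genes tested (0.877% higher and 0.822% lower in Ets1-/-). At an adjusted p no higher than 0.05 and any size of change the count was also 0, against 1.74%. At an unadjusted p under 0.05 it was 1 of 8, Gbp2, against 13.3% of all genes tested (6.39% higher and 6.95% lower). The libraries of the genotypes did not overlap for 4 of the 8, against 41.6% of all genes. Gbp2, Gbp6 and Iigp1 were the higher ones in Ets1-/-, where 19.4% of all genes were higher, and Irgm1 was the lower one, where 22.2% were lower. Since Iigp1 passed the filter only through its high group, the count without it was 3 of 7, with 2 higher. The median log2 fold change of the 8 was 0.17, and that of all genes tested was -0.02.

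**Figure D2:**
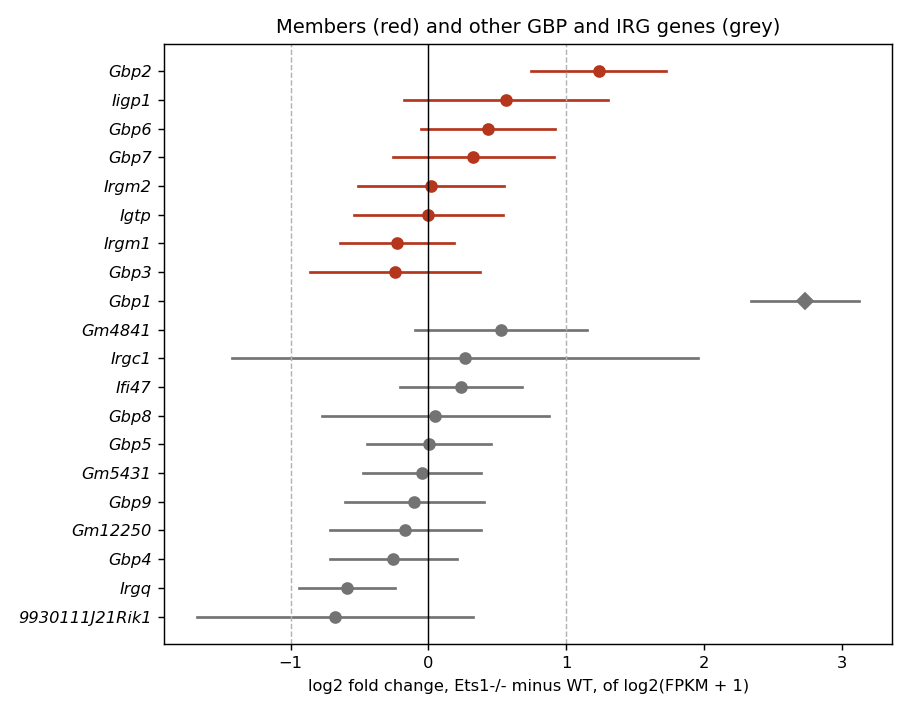
Log2 fold change (Ets1-/- minus WT, of log2(FPKM + 1)) of the 8 genes in red and of 12 other GBP and IRG genes in grey, with 95% intervals as lines, a diamond for a called gene and dashed lines at a change of 1 in each direction. Among the 8, the Gbp2 interval (0.75 to 1.72) lies above 0 and the other 7 include 0.

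Summed over the 4 GBPs, FPKM was 36.5 and 38.2 in WT and 53.7 and 48.7 in Ets1-/-, and the groups did not overlap. Without Gbp2 the sum of the other 3 was 27.3 and 29.2 in WT and 34.3 and 21.8 in Ets1-/-, and the groups overlapped. Over all 11 GBP genes in the tables the sum was 111.7 and 109.8 in WT and 138.8 and 112.7 in Ets1-/-. Summed over the 4 IRGs, it was 73.7 and 60.7 in WT and 61.1 and 63.8 in Ets1-/-, and the groups overlapped. The share of Gbp2 in the FPKM of all 11 GBP genes in the tables was 8.22% and 8.26% in WT and 14.0% and 23.9% in Ets1-/-. The ratio of Gbp2 to Gbp3 FPKM was 0.451 and 0.410 in WT and 0.864 and 1.91 in Ets1-/-. By mean FPKM in WT the order was Irgm1, Igtp, Gbp3, Gbp2, Irgm2, Gbp7, Gbp6 and Iigp1; the values of Igtp and Gbp3 overlapped. By mean FPKM in Ets1-/- Gbp2 took the second place, but there the values of Gbp2, Igtp and Gbp3 overlapped each other, and in replicate 1 Gbp2 was below Gbp3. Those of Irgm2 and Gbp7 overlapped too.

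Gbp1, a neighbour of Gbp2 that is not among the 8, had a larger difference than any of them. Gbp1 is the gene that RefSeq lists as Gbp2b, and it ends 1422 bases before Gbp2 on chromosome 3 of mm9. Its FPKM was 0.0538 and 0.113 in WT and 6.49 and 5.94 in Ets1-/-. On the log2(FPKM + 1) scale it rose by 2.73 with an SE of 0.15 (limma, adjusted p = 0.00381), and it passed the filter only through the Ets1-/- mean. The size depended on the pseudocount, at 5.12 with 0.1 and 1.14 with 5, and with a filter at a mean FPKM of 5 the gene was not called (limma, adjusted p = 0.0678). Inbred mouse strains are known to differ in whether interferon induces Gbp1, and here strain background and genotype cannot be told apart. Only 2.03% of the 50-base words of Gbp2 occur in Gbp1.

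The sequences before the starts of Gbp2 and Gbp1 are shown whole because these neighbours held the largest differences of the cluster. They are RefSeq sequences of GRCm38.p6 on the plus strand, and capitals mark the response element. They were not read from these mice, so alleles of the mixed background are not shown.

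Gbp2, chr3:142620413-142620662: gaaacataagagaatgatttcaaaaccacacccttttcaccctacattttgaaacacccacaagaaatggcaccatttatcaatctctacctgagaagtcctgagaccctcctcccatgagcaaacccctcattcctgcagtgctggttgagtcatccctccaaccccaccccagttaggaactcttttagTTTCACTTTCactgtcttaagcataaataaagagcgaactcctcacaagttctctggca
Gbp1, chr3:142594597-142594846: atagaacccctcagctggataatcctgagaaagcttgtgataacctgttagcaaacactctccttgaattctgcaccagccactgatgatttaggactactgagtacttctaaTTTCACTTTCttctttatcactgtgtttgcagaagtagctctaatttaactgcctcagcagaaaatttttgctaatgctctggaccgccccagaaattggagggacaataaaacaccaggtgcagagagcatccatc

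The 10 capital letters are the same in both, 59 bases before the start in Gbp2 and 137 in Gbp1.

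Around the GBP cluster of chromosome 3, 4 other genes were tested within 300 kb, and their log2 fold changes ran from -0.33 to -0.04. Gbp5, the other GBP of that cluster, was 14.0 and 16.5 FPKM in WT and 17.1 and 13.6 in Ets1-/-, with a log2 fold change of 0.01 (limma, adjusted p = 0.998). Counted within 300 kb of any of the 8 genes, 22 neighbours outside both families were tested; 0 were called by limma, against 1.70% of all genes tested, and 3 had an unadjusted p under 0.05, against 13.3%. Around Irgm1 5 such genes had log2 fold changes of 0.12 to 0.55, while Irgm1 itself was at -0.23.

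**Figure D3:**
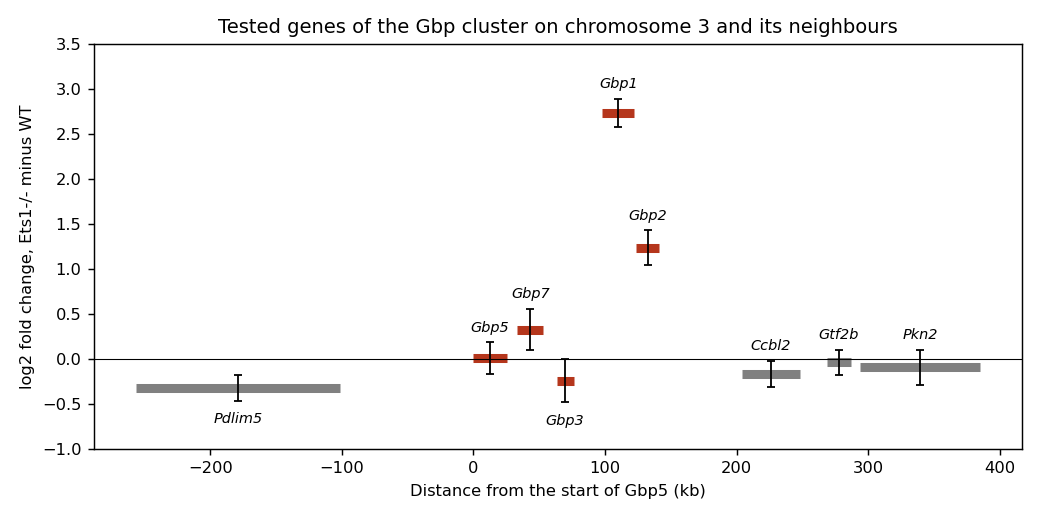
Log2 fold change, with SE, of the genes tested in and around the chromosome 3 GBP cluster, with bars that span each gene at its distance in kb from the start of Gbp5, GBP genes in red and others in grey. Gbp1 (2.73) and Gbp2 (1.24) stand above Gbp3, Gbp5, Gbp7 and the 4 neighbours, which lie between -0.33 and 0.33.

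Of 27 further GBP and IRG symbols searched, 20 were in the tables and 12 passed the filter. Gbp1, which passed only through its Ets1-/- mean, was the only one of these 12 called by limma, against 1.70% of all genes tested. Gbp4 and Gbp9, of the chromosome 5 cluster, were 19.1 to 20.7 and 32.3 to 37.9 FPKM in WT and 14.3 to 19.1 and 28.0 to 37.8 in Ets1-/-. Irgq, an IRG-related gene with a role in autophagy, was 10.11 and 10.05 FPKM in WT and 6.11 and 6.62 in Ets1-/-, a log2 fold change of -0.59 that did not pass the threshold (limma, adjusted p = 0.134). Gbp8 was 2.19 and 3.22 FPKM in WT and 4.06 and 1.85 in Ets1-/-, and Gm12250 and Gm5431 overlapped between the genotypes too, at log2 fold changes of -0.17 and -0.04. Irgc1 was 5.89 and 5.28 FPKM in WT and 2.87 and 15.15 in Ets1-/-, so its Ets1-/- libraries lay on both sides of WT. Gm4841 passed the filter only through its Ets1-/- mean, at a log2 fold change of 0.53. 9930111J21Rik1 was 35.4 and 32.9 FPKM in WT and 32.0 and 13.6 in Ets1-/-, and 82.9% of its 50-base words occur in another gene. Ifi47, an effector IRG, was 46.0 and 40.0 FPKM in WT and 45.4 and 56.5 in Ets1-/-, with a log2 fold change of 0.24. The near-identical copies Tgtp1 and Tgtp2 share 83.4% and 89.8% of their 50-base words, so their low values are uncertain.

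Genes around the interferon-gamma pathway were described from lists chosen with earlier results of these data known. Of 22 genes on the list of receptors, kinases, transcription factors and inhibitors of the pathway, 0 were called by limma, against 1.70% of all genes, and 4 had an unadjusted p under 0.05, against 13.3%. Their median log2 fold change was 0.08. Socs3, a feedback inhibitor of JAK kinases, was 13.8 and 25.4 FPKM in WT and 40.5 and 45.9 in Ets1-/-, a log2 fold change of 1.16 (limma, adjusted p = 0.167). Socs1, another such inhibitor, was 5.28 and 4.10 in WT and 7.54 and 13.4 in Ets1-/-, at 0.97 (limma, adjusted p = 0.221). Ifngr1, a chain of the interferon-gamma receptor, was 40.4 and 41.5 FPKM in WT and 26.3 and 24.8 in Ets1-/-, at -0.66 (limma, adjusted p = 0.0969). Ifng itself was 1.78 and 2.62 FPKM in WT and 4.71 and 2.72 in Ets1-/-, at 0.54 (limma, adjusted p = 0.510). None of these 4 genes, named for the largest changes on the list, was called. Over the whole list the genotypes did not overlap for 8 genes that were higher and 4 that were lower in Ets1-/- and overlapped for 10, where 41.6% of all genes did not overlap.

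Of 15 tested genes on a list of other interferon-gamma targets, 0 were called by limma, against 1.70% of all genes tested. Of the 15, 5 had an unadjusted p under 0.05, all higher in Ets1-/-, where 6.39% of all genes tested were higher at that p. The genotypes did not overlap for 10 that were higher, against 19.4% of all genes, and for 1 that was lower, against 22.2%. The median log2 fold change of the 15 was 0.28. Wars, a tryptophanyl-tRNA synthetase, was 32.6 and 28.1 FPKM in WT and 40.8 and 70.9 in Ets1-/-, at 0.81. Zbp1, a sensor of Z-form nucleic acid, was 39.2 and 33.0 in WT and 49.0 and 70.9 in Ets1-/-, at 0.70. The immunoproteasome genes Psmb10 and Psme1 had log2 fold changes of 0.54 and 0.48. Irf1, a gene of the pathway list above and not one of these 15, had a log2 fold change of 0.35 and was named after its values were seen. As with Gbp2, the Ets1-/- value of Wars and Zbp1 was higher in replicate 2.

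Of 20 tested genes on a list of type I interferon-stimulated genes, 1 was called by limma, against 1.70% of all genes tested, and 6 had an unadjusted p under 0.05, 4 lower and 2 higher in Ets1-/-, against 13.3%. The called gene, Oasl2, related to the oligoadenylate synthetases, fell from 4.77 and 3.84 FPKM in WT to 0.144 and 0.146 in Ets1-/- (log2 fold change -2.21, limma, adjusted p = 0.00969). Eif2ak2, the double-stranded RNA-activated kinase PKR, was 6.88 and 7.66 FPKM in WT and 4.23 and 1.90 in Ets1-/-, at -1.08 (limma, adjusted p = 0.199). Ifit2 had a log2 fold change of -0.64 and the dynamin-like Mx2 one of 0.59, with neither called. The median of this list was -0.19. Of the 20, 2 were higher and 8 lower in Ets1-/- without overlap, against 19.4% and 22.2% of all genes. Of 19 tested genes on a list of autophagy and inflammasome partners of GBPs and IRGs, 0 were called by limma, against 1.70% of all genes tested, and 0 had an unadjusted p under 0.05, against 13.3%, with a median of 0.14. Map1lc3a, an autophagy conjugation protein, had the largest change of this list, at 0.67, and Aim2, a DNA sensor, was at -0.36. Of the 19 partner genes, 10 were higher and 1 lower in Ets1-/- without overlap, against the same shares of all genes. A split of 10 higher and 1 lower was thus not particular to the list of interferon-gamma targets.

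**Figure D4:**
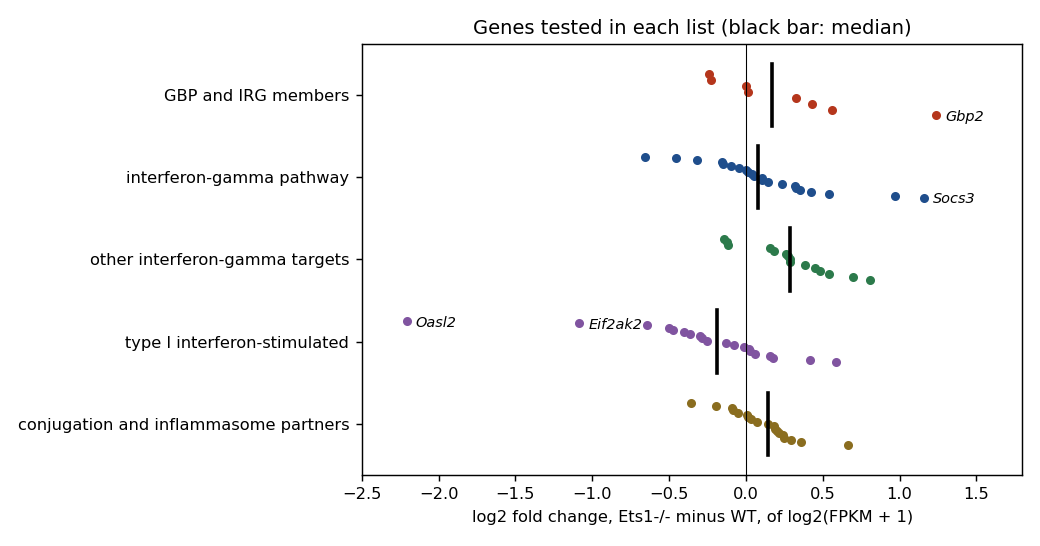
Log2 fold change of the tested genes of each list, as points, with a black bar at the list's median. Oasl2 (-2.21) lies furthest from 0, and the medians run from -0.19 to 0.28.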

How the data were processed

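RNA-seq libraries of follicular B cells from 2 WT and 2 Ets1-/- samples were used. The authors aligned reads to mm9 with TopHat (TopHat2 2.0.13 in the submitters' processing notes), estimated expression with Cuffdiff and deposited FPKM values per gene and library; the gene annotation is not given in the sources used here. Counts and depth are not in the deposited FPKM tables, and relative depth came from the steps between low values. Of 23309 entries, 4 with a repeated symbol were dropped. Tests covered the 10949 genes whose mean FPKM reached 1 in WT or in Ets1-/-, on log2(FPKM + 1) with limma 3.58.1 in R 4.3.3 (trended prior, residual degrees of freedom 2), with Benjamini-Hochberg adjustment over all tested genes. A gene was called when it differed by 1 or more on the log2 scale, in either direction, with an adjusted p no higher than 0.05. Positions are from the GENCODE M1 annotation of mm9, and promoter sequences from RefSeq (GRCm38.p6). Genes were named by a rule: the 8 genes, the other family genes by values, and, from each list, the called genes or up to 4 with the largest change. Irf1 was named outside this rule, after its values were seen. The genes and lists were chosen with earlier results of these data known. The script was tested on simulated data. Alternatives changed the pseudocount, filter, scaling, trend and replicate block, or left out each library.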

Additional observations from a re-analysis of the deposited data

How the results depend on the processing

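Of the 10949 genes tested, 186 were called; the count was 90 with a pseudocount of 5, 75 with no filter on low values, 106 with a mean FPKM of at least 5, 182 with quantile normalization, 154 with upper-quartile scaling, and 130 to 144 when each library was left out in turn. Of the 8 genes, 0 were called, and 0 or 1 when each library was left out in turn; without Ets1-/- replicate 1, Gbp2 was called, with the 1 Ets1-/- library left assumed to vary like the near-identical WT pair. A replicate block gave 266 called genes and 1 of the 8, Gbp2 (adjusted p = 0.0344 in limma). Deviations of same-numbered samples had a correlation of -0.207. This gives no sign of a pairing by number, but 2 libraries per genotype cannot exclude one. The replicate block by number was not the basis of the report. A crossed replicate block, added after seeing the data, called 409 genes and 1 of the 8. Leaving out each library in turn moved Gbp3 between -0.56 and 0.08, Irgm2 between -0.20 and 0.23, and Igtp between -0.22 and 0.23. The sign turned without WT replicate 2 for Irgm2 (-0.20) and Igtp (-0.15), and without Ets1-/- replicate 2 for Gbp3 (0.08), Irgm2 (-0.12) and Igtp (-0.22). Gbp1 was no longer called with a mean FPKM of at least 5 (adjusted p = 0.0678 in limma), and the cause of this was not tested. The 2 libraries per genotype limit the precision throughout.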
